A study of Mus musculus with 12 samples.

Results

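Signal-less poly(A) sites that lie beside a site with a signal numbered 3462, which was 22.1% of the 15698 nuclear sites without a listed hexamer (95% Wilson interval 21.4 to 22.7%) and 2.39% of all 145099 nuclear sites. A site is a cluster of RNA 3' ends in a catalogue of mouse embryonic stem cells, and its signal is the polyadenylation hexamer listed for it. A site was taken as a member when it had no listed hexamer and the nearest edge of a site with one lay within 100 nt on the same chromosome and strand. The 80 mitochondrial sites were left out. The rule used no measured level, and 1744 members lay on the plus strand.

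The catalogue came from V6.5 mouse embryonic stem cells carrying a conditional knockout of Exosc3, a core subunit of the nuclear RNA exosome, in which doxycycline at 0.1 μg/ml maintained Exosc3. The labels described clones of this line, and 12 libraries in 6 groups of 2. The "dox+, 3day" and "dox-, 3day" groups were kept in or removed from doxycycline for 3 days. The other 4 groups were "dox+, 2day" or "dox-, 2day" cells nucleofected with 15 μM of an antisense morpholino (AMO) against U1, or of a scrambled (Scr) one, and harvested 8 hours later. The 3' ends were read by 2P-seq, in which poly(A)-selected, RNase T1-cut RNA is sequenced starting at the tail. The catalogue's 7 columns held position, strand, identifier, hexamer and hexamer distance, and 0 held a value of a library. Levels in the 6 groups, markers of the cells and read depth were therefore not analysed here. The values below describe which sites stand next to which. Intervals cover counting error over sites, and the p-values measure how evenly a difference held over the 19 autosomes, not how it would repeat in other cultures.

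In textbook poly(A) sites, the cleavage and polyadenylation specificity factor binds a hexamer in the nascent RNA, and the RNA is cut and given its tail a short way downstream of it. AATAAA is the canonical hexamer and ATTAAA its most common natural variant, while other hexamers are weaker and U- or GU-rich sequence past the cut helps the cleavage factor CstF to bind. Cleavage at 1 signal is often spread over nearby positions, so neighbouring sites can share a signal. Sites without any known hexamer also occur, and oligo-dT priming inside A-rich transcript sequence can give a false 3' end.

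The hexamers that carry the comparison are shown 5' to 3' on the transcript strand, in DNA letters. They are the 3 most frequent ones at the members' nearest signal sites, followed by 4 that differed most plainly between the sets and were picked after their values had been seen.
Canonical signal: AATAAA
Main variant: ATTAAA
Most frequent A-rich hexamer: AAGAAA
Variant less frequent beside members: TATAAA
Variant more frequent beside members: ACTAAA
A-rich with a C: AAAACA
A-rich with a G: AAAAGA

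The nearest signal site lay downstream of the signal-less site more often than upstream. It was downstream for 2198 members (63.5%, interval 61.9 to 65.1%) and upstream for 1261 (36.4%, interval 34.8 to 38.0%). For 3 members both gaps were equal, and these were left out of every comparison of neighbours. Signal sites with another signal site within 100 nt, 25664 in number and found by the same distance, served as the comparison, with 12785 downstream and 12823 upstream neighbours. Their even split follows from the choice of set, since signal sites in a pair are mostly each other's nearest neighbour, and is no measurement to test against. Over autosomes the downstream share was 63.3% ± 3.70 for the members and 50.01% ± 0.370 for the signal sites (SD, n = 19). The difference of 13.3 percentage points ± 3.77 was positive on all 19 autosomes and ranged from 7.87 to 20.02, which is given as a description with no test.

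A site just downstream of a signal site may be listed with the same hexamer, and then it is no signal-less site, so the side of the neighbour is tied to how signals were listed. How far this sets the share was not tested. The hexamer of the nearest signal site was placed relative to the member by its listed distance. No source used here says from which point of a cluster distances were counted, so each position is bounded by the edges of the neighbouring cluster. With a downstream neighbour, the listed position of the hexamer lay past the member's downstream edge in 1788 of 2198 cases (81.3%, interval 79.7 to 82.9%). The nearest bound then had a median of 29 nt past that edge and the farthest bound a median of 59 nt. RNA ending within these members does not contain the whole of that hexamer. Which base of the hexamer a distance was counted to is not known, so some hexamers may overlap that edge. In a further 285 cases (12.97%) some point of the member could lie 6 to 100 nt past that hexamer, the range of all listed distances.

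With an upstream neighbour, the hexamer lay more than 100 nt before the member's upstream edge in 700 of 1261 cases (55.5%, interval 52.8 to 58.2%), whatever point the distance was counted from. The nearest bound to that edge had a median of 104 nt and quartiles of 85 and 124 nt. A hexamer certain to lie 6 to 100 nt before the member was found in 0 of 1261 cases with an upstream neighbour. With a downstream neighbour it was found in 0 of 2198. Such a hexamer could have been listed for the site itself, which would then be no member. How hexamers were searched is not known, so nothing is drawn from these counts. For the other 561 members with an upstream neighbour (44.5%, interval 41.8 to 47.2%), the bounds did not settle whether some point of the member lay in that range.

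**Figure D1:**
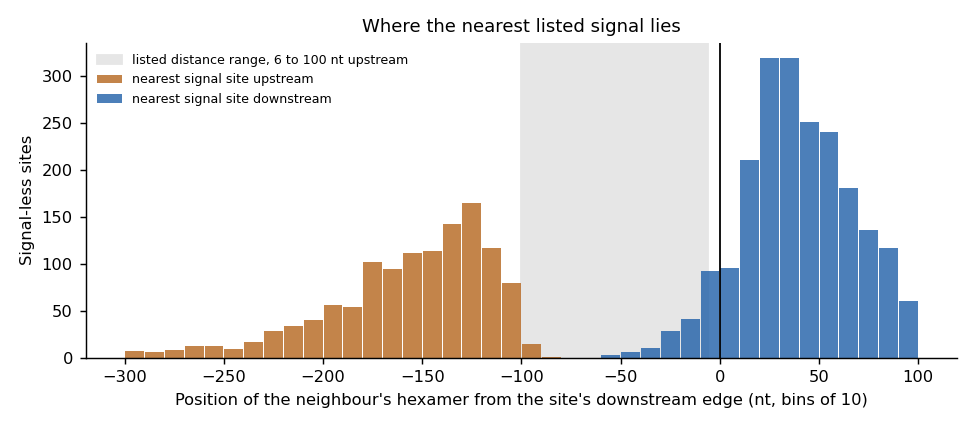
Number of signal-less sites by the position of the nearest signal site's hexamer, in nt from the signal-less site's own downstream edge (0) and in bins of 10 nt, with upstream positions negative. Positions are the middle of their bounds. The grey band marks 6 to 100 nt upstream, and 90 sites with a downstream and 36 with an upstream neighbour lie beyond the axis. Downstream neighbours peak at 20 to 40 nt past the edge, upstream neighbours at -130 to -120 nt, and the bins from -80 to -60 nt are empty.

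The nearest signal sites of members were listed less often with the canonical hexamer, and more often with A-rich ones, than those of signal sites. The canonical hexamer was listed for 829 of the 3459 nearest signal sites (23.97%, interval 22.6 to 25.4%), against 9351 of 25608 for the signal sites (36.5%, interval 35.9 to 37.1%). On every one of the 19 autosomes the share was lower for the members, by 2.81 points at the least and 18.4 at the most. The mean difference was -12.6 percentage points ± 3.87 (SD, n = 19). It pools both sides, and the rule bears on which upstream neighbours remain, so the test is given below for downstream neighbours alone. ATTAAA was listed for 417 (12.1%, interval 11.0 to 13.2%) against 16.7% (interval 16.3 to 17.2%). TATAAA, the most frequent variant after it in the comparison set, was listed for 208 (6.01%, interval 5.27 to 6.86%) against 8.49% (interval 8.15 to 8.83%).

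The A-rich hexamers, those with 5 or more A other than AATAAA, were more frequent beside the members. They were listed for 840 nearest signal sites (24.3%, interval 22.9 to 25.7%), more than the canonical hexamer, against 12.9% (interval 12.5 to 13.4%) beside signal sites. This difference, examined after the data had been seen, was 11.3 percentage points ± 2.69 and positive on 19 of 19 autosomes. It too pools both sides and is given with no test. AAGAAA was the most frequent, with 263 (7.60%, interval 6.77 to 8.53%) against 5.14% (interval 4.88 to 5.42%). AAAACA was listed for 82 (2.37%, interval 1.91 to 2.93%) against 0.824% (interval 0.720 to 0.942%). AAAAGA was listed for 70 (2.02%, interval 1.60 to 2.55%) against 0.676% (interval 0.582 to 0.784%). The share was higher beside members for 13 of the 14 A-rich hexamers, the exception being ATAAAA, which no member had. The remaining 20 hexamers showed the same in 17 cases. ACTAAA, with 103 (2.98%, interval 2.46 to 3.598%) against 1.42% (interval 1.28 to 1.57%), was among them. Together these 20 hexamers made up 39.7% (interval 38.1 to 41.3%) against 33.8% (interval 33.2 to 34.4%), so a higher share was not particular to the A-rich ones. The shares add up to the whole, so a lower share of some hexamers raises that of others. In all, 35 of the 36 hexamers of the catalogue occurred as a member's nearest signal.

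The lower canonical share was tested on the downstream side, where the rule bears less on which neighbours remain. Of downstream neighbours of members, 517 were canonical (23.5%, interval 21.8 to 25.3%), against 41.5% (interval 40.6 to 42.3%) for signal sites. Of upstream neighbours, 312 were canonical (24.7%, interval 22.4 to 27.2%), against 31.6% (interval 30.8 to 32.4%). The downstream difference over autosomes was -17.4 percentage points ± 5.37 (SD, n = 19, adjusted p = 1.5e-05, permutation test). The upstream one, -7.42 ± 6.16, is given with no test. A hexamer close to an upstream neighbour can lie within 100 nt of the site and be listed for it, the site is then no member, and canonical hexamers lay closer to their sites than A-rich ones. A-rich hexamers made up 24.2% of downstream and 24.4% of upstream neighbours of members, against 11.3% and 14.6% for signal sites. Within the members, the canonical share differed between the sides by -0.367 percentage points ± 8.27 (downstream minus upstream, higher on 10 of 19 autosomes). As the rule bears on the upstream side, this is given with no test and does not show that the sides are alike. Across gaps the intervals of the members' canonical share overlapped. It stood at 23.6% (interval 18.3 to 29.9%) at gaps of 1 to 25 nt, 22.8% at 26 to 50 nt, 25.05% at 51 to 75 nt and 24.7% (interval 21.9 to 27.7%) at 76 to 100 nt.

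**Figure D2:**
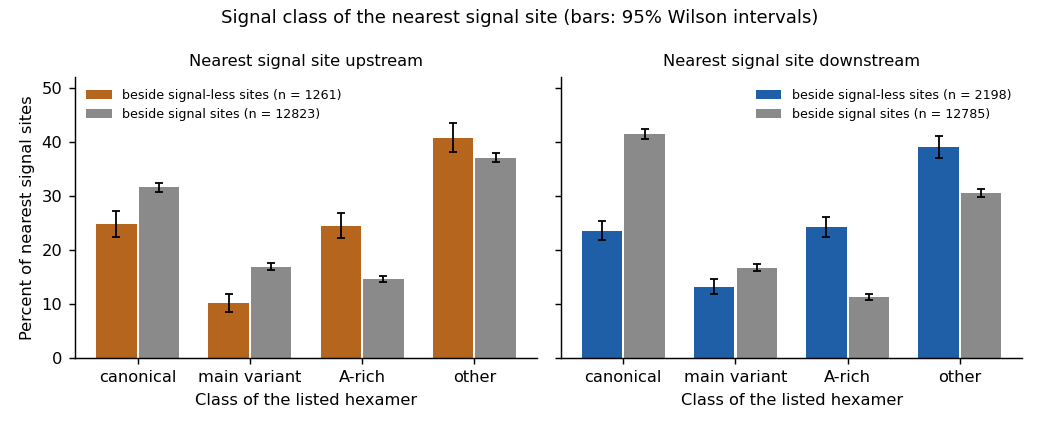
Percent of nearest signal sites in each class of listed hexamer, for upstream (left) and downstream (right) neighbours, beside signal-less sites (coloured) and beside signal sites (grey), with 95% Wilson intervals as error bars. The canonical class stands at 24.7% and 23.5% beside signal-less sites against 31.6% and 41.5% beside signal sites, and the A-rich class at 24.4% and 24.2% against 14.6% and 11.3%.

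Because a signal site and its neighbour may be listed with the same hexamer, both sets were also limited by the hexamer's listed position. Kept were sites whose downstream neighbour had it past the site's own downstream edge, called between the pair. Of the 1788 such members, 26.8% (interval 24.8 to 28.9%) stood before a canonical hexamer, against 45.5% (interval 44.5 to 46.6%) of 8213 signal sites. Over autosomes this was a difference of -18.2 percentage points ± 6.60, negative on all 19 (adjusted p = 2e-05, permutation test). A-rich hexamers made up 20.7% (interval 18.9 to 22.6%) against 9.19% (interval 8.59 to 9.84%), a difference of 11.3 percentage points ± 4.34 that was positive on all 19 (adjusted p = 2e-05, permutation test). This restriction was chosen after the data had been seen.

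The distance of the neighbour's hexamer is touched by the same selection. Downstream neighbours of members had it at 15 to 30 nt, the usual distance of a signal from its site, in 1436 cases (65.3%, interval 63.3 to 67.3%), against 54.5% for signal sites. Upstream neighbours had it there in 519 cases (41.2%, interval 38.5 to 43.9%), against 67.0%. The upstream difference of -26.2 percentage points ± 8.05 is a description with no test. A site past such a neighbour may be listed with the same hexamer and is then no member. The downstream difference was 11.5 ± 4.57 and is also given with no test. Signal sites may share a hexamer with their downstream neighbour, which then has it farther away. Their downstream neighbours had it at 61 to 100 nt in 29.2% of cases, against 9.96% for members. With the hexamer between the pair in both sets the difference was -5.40 ± 5.19, at shares of 76.6% and 82.4% (adjusted p = 0.000427, permutation test). Both sides together gave -4.03 ± 3.63. This value was -2.65 with signal sites within 50 nt and -2.09 without clusters wider than 50 nt. It pools both sides and is given with no test, so no direction is drawn from it. The median distance was 23 nt (quartiles 19 and 32 nt) for downstream and 35 nt (quartiles 22 and 72 nt) for upstream neighbours.

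Signal classes differed in this distance. Canonical hexamers lay at a median of 21 nt in downstream neighbours and 23 nt in upstream ones, and those of ATTAAA at 22 and 24 nt. A-rich hexamers lay at a median of 26 nt (quartiles 19 and 49 nt) in downstream neighbours and 61 nt (quartiles 30 and 82 nt) in upstream ones. Of all members, 629 had a canonical hexamer at 15 to 30 nt of the neighbour (18.2%, interval 16.9 to 19.5%), against 25.6% (interval 25.1 to 26.2%) of the signal sites. Both sides are pooled here, so the same selection bears on these shares.

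Gaps to the nearest signal site had a median of 53 nt (quartiles 36 and 75 nt). With a downstream neighbour the median was 50 nt and with an upstream neighbour 60 nt, against 48 nt on either side for signal sites. Gaps of at most 25 nt made up 5.87% of the members' gaps (interval 5.13 to 6.70%) and 5.19% of the signal sites' (interval 4.92 to 5.47%). Downstream gaps were most frequent at 31 to 40 nt, with 406 members, and numbered 176 at 91 to 100 nt. Upstream gaps were spread evenly from 21 nt on, with 142 to 164 members in each 10 nt. Gaps of at most 50 nt accounted for 46.5% of the members' gaps (interval 44.8 to 48.1%) and 53.9% of the signal sites'. The difference over autosomes was -6.93 percentage points ± 4.06, negative on 17 of the 19. It pools both sides and is given with no test. For downstream neighbours alone that difference was -2.95 (adjusted p = 0.051, permutation test), for upstream ones -14.3, where a short gap also brings the neighbour's hexamer closer to the site and the rule bears on which sites remain, and with the hexamer between the pair it was 4.77 in the other direction (adjusted p = 0.00237, permutation test). At the limit itself, 145 signal-less sites had a gap of 96 to 100 nt and 136 had one that was up to 5 nt longer.

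**Figure D3:**
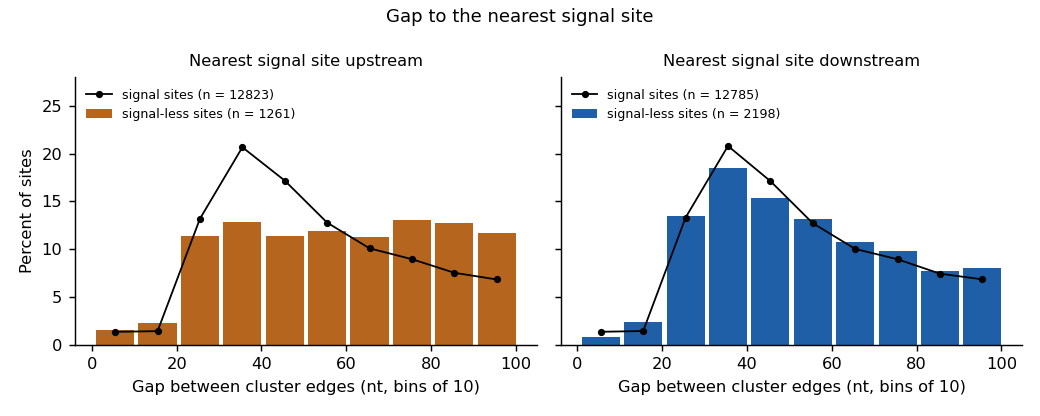
Percent of sites by gap in nt to the nearest signal site, in bins of 10 nt, where that site is upstream (left) or downstream (right), for signal-less sites (bars) and signal sites (black points). Downstream gaps of both sets peak at 31 to 40 nt (18.5% and 20.8%), while upstream gaps of signal-less sites hold 11.3 to 13.0% in each bin from 21 nt on.

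**Figure D4:**
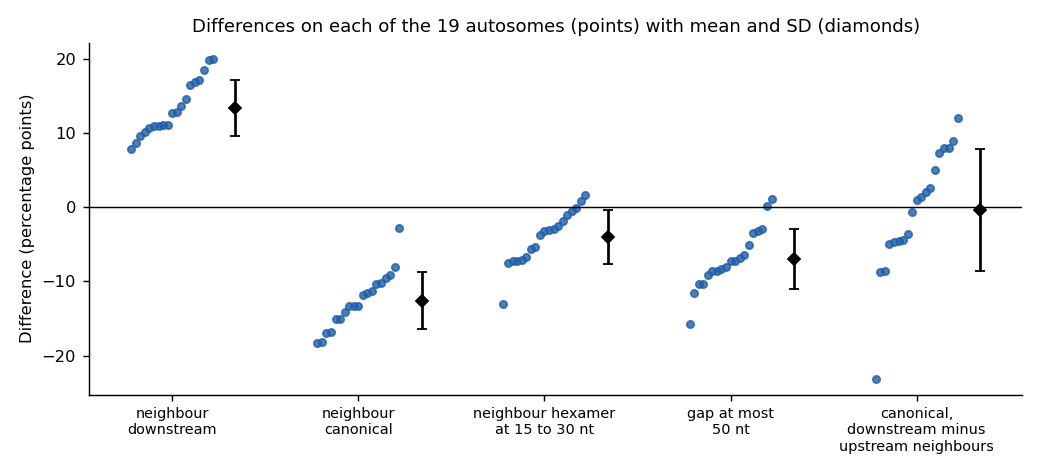
Difference in percentage points on each of the 19 autosomes (points, sorted by size) with mean and SD (diamonds), for signal-less sites minus signal sites in the first 4 columns and for downstream minus upstream neighbours in the last. The side of the neighbour and its canonical share keep 1 sign on 19 of 19 autosomes, and the canonical share by side is spread around 0. For the side, the signal sites' even split follows from the choice of set.

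Members were wider than other signal-less sites, and the signal sites next to them were wider than those next to signal sites. The median width of the members was 17 nt (quartiles 6 and 34 nt, largest 1379 nt), against 11 nt for the 12236 signal-less sites with no signal site within 100 nt and 16 nt for the signal sites of the comparison. On the log2 scale the mean was higher than for the other signal-less sites by 0.60 ± 0.21 (SD, n = 19), on 19 of 19 autosomes. Gaps run between cluster edges, so a wider cluster comes within 100 nt more easily, and this difference is given with no test. Among clusters of at most 50 nt the value was 0.24. Signal sites also had a larger median width beside a signal site, 16 nt against 9 nt for all signal sites. Against the signal sites of the comparison the members' difference was 0.056 ± 0.23 (adjusted p = 0.448, permutation test). Of the members, 520 were wider than 50 nt (15.02%, interval 13.9 to 16.2%) and 336 were 1 nt wide (9.71%, interval 8.76 to 10.7%), against 9.66% and 7.67% of the signal sites.

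The members' nearest signal sites had median widths of 26 nt downstream and 32 nt upstream, against 17 and 16 nt beside signal sites. The mean log2 width of these neighbours was higher by 0.83 ± 0.22 on 19 of 19 autosomes, and by 0.44 without clusters wider than 50 nt. Both sides are pooled in these values. A wide upstream neighbour can have its hexamer farther from the site, so the rule bears on which sites remain. The difference in width is therefore given with no test. The member was the narrower of the pair in 2213 of 3459 cases (63.98%, interval 62.4 to 65.6%). Among signal sites 48.5% were narrower than their neighbour and 48.3% wider. This near-even split follows from the choice of set, as it did for the side of the neighbour. The difference of 14.6 percentage points ± 3.55 in the narrower share, positive on each autosome, is therefore a description with no test. Which of the pair carried more reads was not analysed here.

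Sites of a strand were joined into runs where gaps were at most 2 kb, and members lay in runs of a median of 7 sites (quartiles 4 and 12), against 6 for the signal sites and 4 for the other signal-less sites. A member's run has at least 2 sites by the rule, which is not so for the other signal-less sites. Runs of 10 or more sites held 35.3% of the members (interval 33.7 to 36.9%), 26.7% of the signal sites (interval 26.2 to 27.3%) and 16.2% of the other signal-less sites (interval 15.5 to 16.9%). A member with an upstream neighbour was the last site of its run in 230 of 1261 cases (18.2%, interval 16.2 to 20.5%), against 32.2% of signal sites. This difference of -14.6 percentage points ± 3.79, negative on 19 of 19 autosomes, is given with no test. The rule bears on which sites with an upstream neighbour remain, and members lay in longer runs, where fewer of the sites are last. A member with a downstream neighbour was the first site of its run in 687 of 2198 cases (31.3%, interval 29.4 to 33.2%), against 33.7% (difference -1.97 ± 5.51, negative on 12 autosomes, adjusted p = 0.137, permutation test).

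Members rarely shared a neighbour. The 3459 members with 1 nearest signal site were beside 3262 such sites, of which 3067 had 1 member, 193 had 2 and 2 had 3. For 3368 of them no other site stood in between, and for 91 another signal-less site did. Signal sites lay within 100 nt on each side of 340 members (9.82%, interval 8.87 to 10.9%). Another signal-less site lay within 100 nt of 609 members (17.6%, interval 16.4 to 18.9%) and of 16.6% of the other signal-less sites (difference 1.24 percentage points ± 3.54, higher on 12 of 19 autosomes, adjusted p = 0.166, permutation test). It lay within 100 nt of 4.84% of the signal sites (interval 4.59 to 5.11%), and this difference from the members was 12.4 percentage points and positive on every autosome. Neighbouring sites can share a listed hexamer, so the choice of sets bears on whether a neighbour has none. The difference from the signal sites is thus given with no test. A cluster of the opposite strand overlapped 74 members by at least 1 nt (2.14%, interval 1.71 to 2.68%), against 0.973% of the other signal-less sites (difference 1.04 percentage points ± 1.05, higher on 16 of 19, adjusted p = 0.000413, permutation test). Without clusters wider than 50 nt that difference was 0.447 (adjusted p = 0.146, permutation test), and against the signal sites, with 2.15%, it was -0.144 ± 1.54 (adjusted p = 0.691, permutation test).

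The members were spread over the genome. Between 19.5% of the signal-less sites on chromosome 8 and 29.4% on chromosome 3 were members, with a mean of 22.3% ± 2.45 (SD over 19 autosomes). Chromosome 3 had 194 of 660 (interval 26.05 to 33.0%) and chromosome 13, the next, 149 of 559 (26.7%, interval 23.2 to 30.5%). Chromosome X had 71 of 324 (21.9%). Unplaced sequences together with chromosome Y had 2. The downstream side held most members on each autosome, from 58.1% on chromosome 10 to 69.4% on chromosome 5.

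The 2690 runs with a member had 1 each in 2162 cases, and 26 runs had 5 or more. The 3 runs with the most members are given in mm9 coordinates without gene names, since the catalogue pairs sites with none. A minus-strand run on chromosome 19, from 5795686 to 5803330, had 42 sites over 7645 nt, of which 14 were signal-less and 11 members. Its clusters covered 57.0% of its length. The members were 2 to 144 nt wide, with gaps of 8 to 76 nt, and ran from the 10th to the 37th site of the run in transcript order. Their nearest signals were canonical in 0 cases, A-rich in 3, ATTAAA in 1 and other variants in 7. The widest member there, at 5797781 to 5797924, was 144 nt wide and stood 33 nt past an upstream neighbour listed with AGTAAA at 97 nt.

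On chromosome 17, a minus-strand run from 66827863 to 66833396 had 19 sites, 10 without a signal and 9 of them members. The nearest signals were A-rich in 7 cases and canonical in 2. A member from 66829534 to 66830250, 717 nt wide, stood 78 nt before a neighbour of 40 nt with AAAACA at 24 nt. Another, from 66832887 to 66833026 and 140 nt wide, stood 23 nt before a canonical site 942 nt wide. The clusters covered 67.0% of this run and had a median width of 84 nt, and the members' gaps were 23 to 94 nt. The third run, on the minus strand of chromosome 9 from 78322426 to 78329350, had 33 sites, 12 without a signal and 7 members. The canonical hexamer was listed for 0 of its sites, and the members' nearest signals were A-rich in 2 cases and other variants in 5. A pair of its members, at 78328493 to 78328534 and 78328305 to 78328394, lay 14 nt before and 32 nt past the same 52 nt cluster with AAAAAT at 14 nt.

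**Figure D5:**
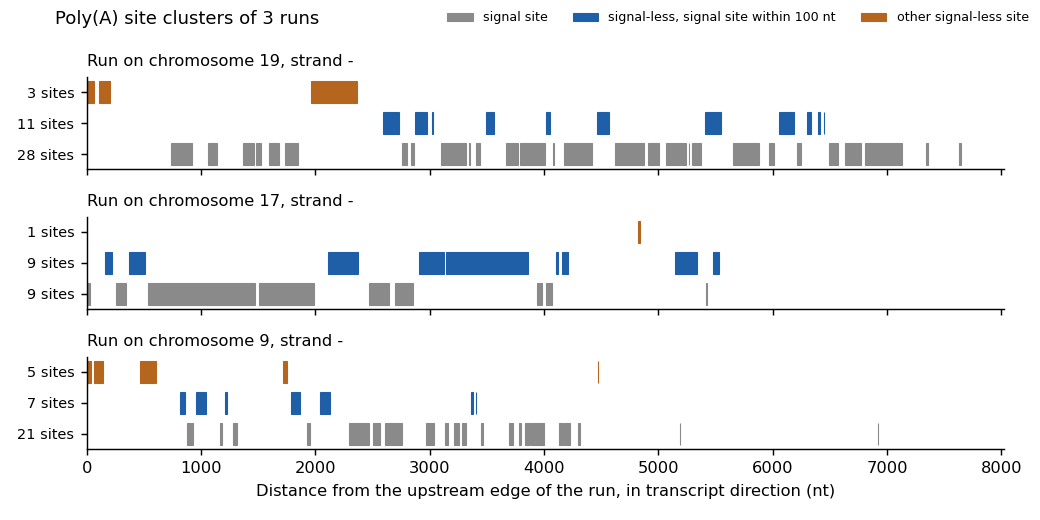
Clusters of the 3 runs with the most members, drawn to scale by distance in nt from the upstream edge of the run in transcript direction, with signal sites (grey), signal-less sites with a signal site within 100 nt (blue) and other signal-less sites (orange) in separate rows. The 11 blue clusters on chromosome 19 are spread over sites 10 to 37 of the run, with 3 orange ones upstream of them. Clusters cover 67.0% of the chromosome 17 run, which has open stretches from 4211 to 4818 nt and from 4835 to 5144 nt.

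Single members at the extremes were as follows. The widest on the plus strand lay on chromosome 11 from 68886965 to 68888343, was 1379 nt wide and ended 33 nt before an 83 nt site with AAAATA at 34 nt. The widest on the minus strand lay on chromosome 19 from 5843779 to 5844943, was 1165 nt wide and stood 11 nt past a 325 nt site with AACAAT at 77 nt. The member closest to a downstream canonical site with its hexamer at 15 to 30 nt lay on the minus strand of chromosome 5 from 65193291 to 65193298. It was 8 nt wide and 1 nt before a site of 61 nt, whose hexamer distance of 16 nt allows the hexamer on either side of the member's downstream edge. The closest to such an upstream site was on chromosome 1, plus strand, from 88256594 to 88256638, had a width of 45 nt and stood 3 nt past a site of 112 nt with AATAAA at 20 nt.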

How the data were processed

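The 12 libraries were grouped by the labels, but no group entered a test. The authors deposited 1 catalogue with cluster positions and hexamer distances in nt, per the file headers, and these were used unchanged. Trimmomatic, STAR and bedtools are named, without versions, in the submitters' processing notes, with the mm9 build. The sources used here give neither the rule for joining read ends nor the libraries used, a filter or how hexamers were searched. Starts were counted from 0 in the file and are printed counted from 1. Gaps are nt between cluster edges, and nearest signal sites were found on each strand.

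Differences were taken on each of the 19 autosomes and tested by flipping their signs in a permutation test (100000 resamples, 2-sided, smallest possible p 1e-05), adjusted by Benjamini-Hochberg over 8 comparisons, over 5 for those added later, and under any other setting over the 3 to 8 comparisons run with it. The adjustments also count the differences that are given above with no test. Members, lists and comparisons were chosen with earlier results of these data known. Sites named by position were the 3 runs with the most members, the widest member of each strand and, per side, the member closest to a canonical site with its hexamer at 15 to 30 nt. In a simulated catalogue of isolated pairs with 1 signal site each, side and gap were recovered for 7600 of 7600 sites. Signal sites on both sides and other sites in between were not simulated. The test passed 5.4% of 500 sets of independent normal values without a difference, which does not check how the sets of sites were chosen. Alternatives were other limits, no wide clusters, each strand, other end counting, 1 site per neighbour, no leading runs and each side. The work used matplotlib 3.10.9, scipy 1.17.1, pandas 2.3.3 and numpy 2.4.6 under Python 3.11.15, with random seed 1.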

Additional observations from a re-analysis of the deposited data

How the results depend on the processing

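No paired analysis was possible because the catalogue has no value of a library. Of 69 values of the 8 comparisons under 10 other settings, 58 kept their direction and their side of the threshold. Among the 69 are values for the downstream share, for upstream neighbours alone and for other differences given above with no test. These serve here as descriptions only. The downstream share lay above that of the signal sites by 10.6 to 18.7 percentage points, where their even split is set by the choice of set. The difference in the canonical share lay between -17.4 with downstream and -7.42 with upstream neighbours alone. The values that follow are differences in percentage points, except for log2 width. With signal sites within 50 nt, the difference in hexamers at 15 to 30 nt was -2.65. That in the canonical share by side was 2.24 and that in the share with another signal-less site -0.117. With 200 nt these last were 0.468 and 6.66 (adjusted p = 0.000133, permutation test). Without clusters wider than 50 nt the difference was -2.09 for the hexamer share, 0.447 for the opposite-strand overlap and -0.181 for another signal-less site. Counting each nearest signal site once gave -1.32 for another signal-less site. Downstream neighbours alone gave 11.5 for the hexamer share and -2.95 for gaps of at most 50 nt. Alternatives added after seeing the data gave 4.77 for such gaps with the hexamer between the pair. Against signal sites they gave 0.056 for log2 width, -0.144 for opposite-strand overlap and 12.4 for another signal-less site. For sites with a downstream neighbour, the difference in the share that start a run was 1.42 without wide clusters, at 37.9% of members and 36.5% of signal sites. The cause of these changes was not tested. Read depth is unknown, and priming inside A-rich sequence was not tested.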
